A study of Mus musculus with 6 samples.

Results

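The epidermal growth factor (EGF) family ligands and the ErbB receptors they bind were examined in cultured mouse podocytes lacking the adaptors NCK1 and NCK2. The set was a list of 10 genes, the ligands Areg, Ereg, Hbegf, Btc, Tgfa, Egf and Nrg1 and the receptors Egfr, Erbb2 and Erbb3, each read by the brightest probe set to which the platform annotation gives that symbol alone. Of these, 9 were measured, among 30702 genes in all, and Areg was not analysed here. RNA came from an NCK1/2 knockout line (3 arrays) and a wildtype line (3 arrays), both conditionally immortalized, which lets cells grow under a permissive condition and mature once it is withdrawn. Both were kept for 10 days of differentiation on type I collagen. The replicates of each line are called independent, and each genotype is 1 line, so genotype and line cannot be told apart. Values are log2 probe set intensities, on which a difference of 1 is a 2-fold change, and the number of arrays limits their precision.

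The ErbB receptors are tyrosine kinases that pair up when a ligand binds and then phosphorylate each other's tails. Most ligands are made as membrane-anchored precursors and are set free by metalloproteases. Phosphorylated tails recruit adaptors, the NCK proteins among them, and feed the ERK and phosphoinositide 3-kinase cascades. In the kidney glomerulus, heparin-binding EGF and its receptor on podocytes are known from studies of crescentic injury.

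Several facts of these arrays touch every value that follows. Nck1 fell, with 8.13, 8.17 and 8.06 on the knockout arrays, against 8.54, 8.74 and 8.62 on the wildtype arrays. Nck2 had 7.25, 7.27 and 7.19 on the knockout arrays and 7.37, 7.62 and 7.45 on the wildtype arrays, a log2 difference of -0.24 that missed the threshold (limma adjusted p = 0.0941), and where either probe set lies relative to the deleted part is not known. The highest of the 23 background probe sets averaged 7.78, and a mean at or below it is called background range here. Both Nck2 means, 7.24 in knockout and 7.48 in wildtype, were in background range. Of 7 measured podocyte markers none passed with limma (0 also at an unadjusted p under 0.05), and 4, Nphs1, Wt1, Tcf21 and Ptpro, were in background range in both lines. The podocyte genes Cd2ap, at 11.23 in knockout and 11.15 in wildtype, Synpo, at 8.75 and 8.73, and Podxl, at 8.40 and 8.31, were above it. The kidney tubule genes Pax8, at 10.69 in knockout and 11.42 in wildtype, and Aqp1, at 9.42 in knockout and 12.92 in wildtype, were also above background range. Of the 7 tubule markers 2, Slc12a1 and Slc12a3, were in background range in both lines. Of 4 measured sex-linked genes 3 passed, Xist with 6.01 in knockout and 12.19 in wildtype, the Y-linked Uty with 9.90 in knockout and 5.21 in wildtype, and the Y-linked Kdm5d with 8.96 in knockout and 6.12 in wildtype. The Y-linked Eif2s3y averaged 4.50 in knockout and 4.49 in wildtype, in background range in both. Xist was above background range only in wildtype and Uty and Kdm5d only in knockout, the pattern of a female wildtype and a male knockout line. A difference in sex between the lines cannot be told apart from genotype in any value here.

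Knockout podocytes had more Btc transcript and less Hbegf, Nrg1, Tgfa and Erbb2 than wildtype podocytes. Each of these 5 measured differences was under 1 log2 unit, and that of Btc has only a lower bound, since its wildtype mean was in the background range. Ereg, Egf, Egfr and Erbb3 did not pass. The call was a two-sided moderated test per gene with limma, Benjamini-Hochberg adjusted over all 30702 genes at 0.05, which called 12.0% of all genes, 5.05% of all genes higher and 6.90% lower in knockout. That was 3669 genes, and it was 2232, 2311 and 2079 without knockout replicate 1, knockout replicate 2 and wildtype replicate 3. Among the 9 members 1 rose and 4 fell, and the median log2 fold change was -0.16, against 0.01 over all genes. The 3 knockout values lay entirely on one side of the 3 wildtype values in 8 of the 9 members, where this held for 27.4% of all genes.

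**Figure D1:**
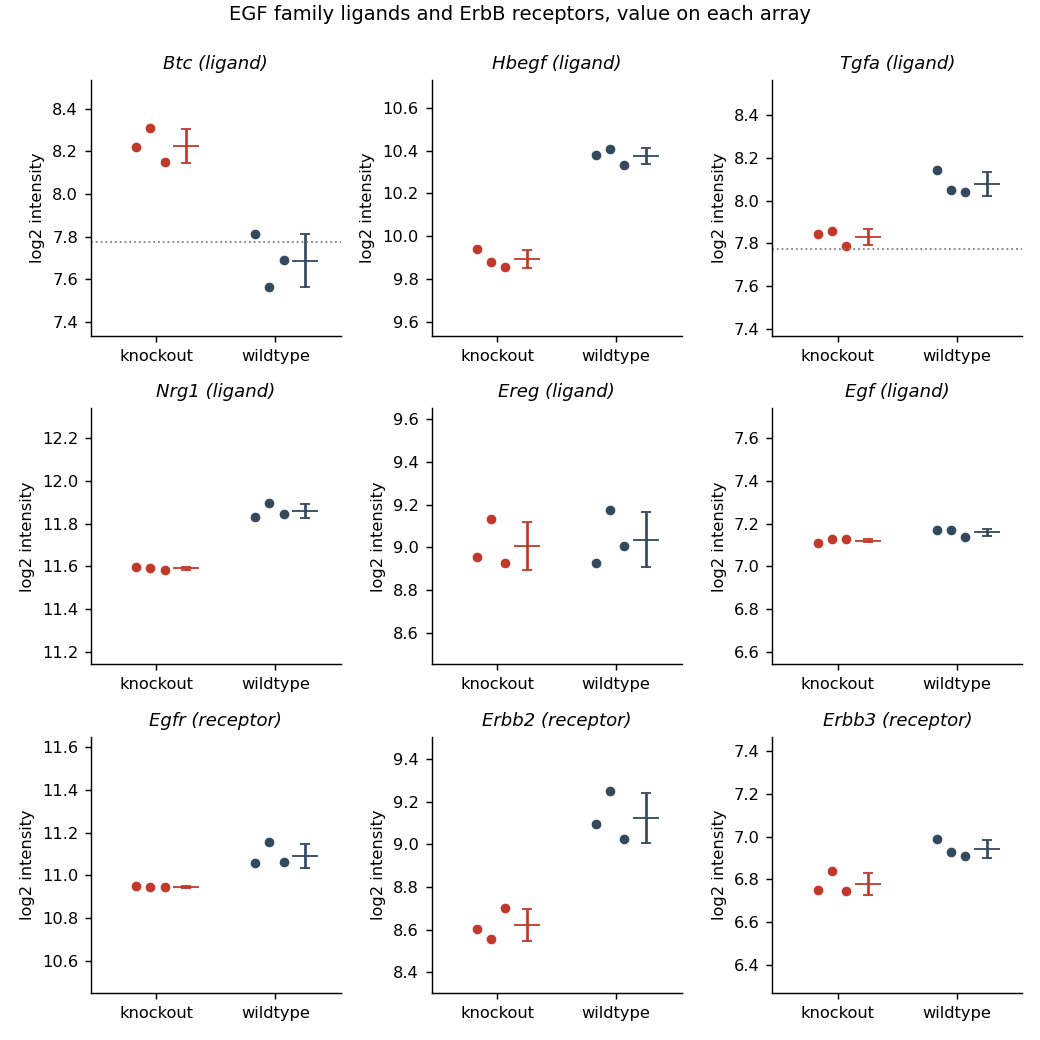
Log2 intensity of each member on each array, knockout left and wildtype right, with a panel for each gene and the same height of 1.2 log2 units in each. Points are arrays, in the order of replicates 1 to 3, the bars beside them are means with SD (n = 3), and the dotted line in the Btc and Tgfa panels is the highest background probe set (7.78); only the Ereg points of the groups overlap.

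Btc encodes betacellulin, a ligand of the EGF receptor and of ErbB4. It had 8.22, 8.31 and 8.15 on the knockout arrays, against 7.81, 7.56 and 7.69 on the wildtype arrays. All knockout values were above all wildtype values, and the wildtype mean was in background range. Btc averaged 8.22 ± 0.08 in knockout and 7.69 ± 0.12 in wildtype (SD, n = 3 each), a measured log2 difference of 0.54 (SE 0.08, 95% confidence interval 0.35 to 0.72, limma adjusted p = 0.00662). Since wildtype was in background range, the change is given as a bound, with each wildtype array raised to 7.78 where it was lower: Btc was at least 1.35-fold higher in knockout.

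Hbegf encodes heparin-binding EGF, which binds the EGF receptor and ErbB4 and also signals while still anchored in the membrane. Its values were 9.94, 9.88 and 9.86 on the knockout arrays and 10.38, 10.41 and 10.33 on the wildtype arrays. The groups stood apart, and the spread within each was small. The means were 9.89 ± 0.04 in knockout and 10.37 ± 0.04 in wildtype, so that Hbegf was 28.4% lower in knockout, a log2 fold change of -0.48 (SE 0.05, interval -0.60 to -0.37, limma adjusted p = 0.00141).

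Nrg1 encodes neuregulin 1, the ligand of ErbB3 and ErbB4. It had 11.59, 11.59 and 11.58 on the knockout arrays, against 11.83, 11.90 and 11.85 on the wildtype arrays, a log2 fold change of -0.27 (SE 0.04, interval -0.37 to -0.17, limma adjusted p = 0.00928). All knockout values were lower. A second, dimmer probe set with the Nrg1 symbol had 7.16, 7.42 and 7.23 on the knockout arrays and 7.83, 8.25 and 7.80 on the wildtype arrays, a log2 change of -0.69 (SE 0.14; limma adjusted p = 0.0411 over all 72688 probe sets). The knockout mean of the dimmer probe set was in background range, so its change is bounded only as at least 1.13-fold lower in knockout. The transcripts each probe set reads were not examined.

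Tgfa encodes transforming growth factor alpha, a ligand of the EGF receptor only. It had 7.84, 7.86 and 7.79 on the knockout arrays, against 8.14, 8.05 and 8.04 on the wildtype arrays, a log2 fold change of -0.25 (SE 0.05, interval -0.37 to -0.13, limma adjusted p = 0.0245). The groups did not overlap, and all knockout values were close to the highest background probe set. The call was lost without knockout replicate 1, 2 or 3 or wildtype replicate 3, with limma adjusted p from 0.0741 to 0.0859 and log2 fold changes from -0.26 to -0.23.

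The remaining ligands did not pass. Ereg, which encodes epiregulin, had 8.96, 9.13 and 8.93 on the knockout arrays and 8.93, 9.18 and 9.01 on the wildtype arrays, a log2 difference of -0.03 (interval -0.24 to 0.18, limma adjusted p = 0.928). Its groups overlapped fully. A dimmer Ereg probe set had 7.26, 7.26 and 7.01 on the knockout arrays and 7.32, 7.40 and 7.35 on the wildtype arrays, a log2 difference of -0.18 that missed the threshold over all probe sets (limma adjusted p = 0.352). Egf itself, at 7.11 to 7.13 in knockout and 7.14 to 7.17 in wildtype, was in background range in both lines and differed by -0.04 (interval -0.14 to 0.06, limma adjusted p = 0.718). Although its groups did not overlap, the gap was small, and such a level does not show whether Egf was expressed.

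Of the receptors, Erbb2 fell. ErbB2 has no known ligand of its own and acts as the partner of the other receptors. It had 8.60, 8.56 and 8.70 on the knockout arrays, against 9.09, 9.25 and 9.02 on the wildtype arrays, and averaged 8.62 ± 0.07 in knockout and 9.12 ± 0.12 in wildtype. This was 29.4% lower in knockout, a log2 fold change of -0.50 (SE 0.07, interval -0.68 to -0.32, limma adjusted p = 0.00715). Every knockout value was below every wildtype value, and 6.23% of all genes had a larger change.

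Egfr, the receptor of most ligands in the list, had 10.95, 10.94 and 10.94 on the knockout arrays and 11.06, 11.15 and 11.06 on the wildtype arrays. The groups did not overlap, and the log2 difference of -0.14 (SE 0.05, interval -0.26 to -0.03) missed the threshold over all genes (limma adjusted p = 0.117). Erbb3, whose product binds neuregulins and has a weak kinase, had 6.75, 6.84 and 6.75 on the knockout arrays and 6.99, 6.93 and 6.91 on the wildtype arrays. Both Erbb3 means were in background range, and its log2 difference of -0.16 (interval -0.28 to -0.04) also missed it (limma adjusted p = 0.0928).

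**Figure D2:**
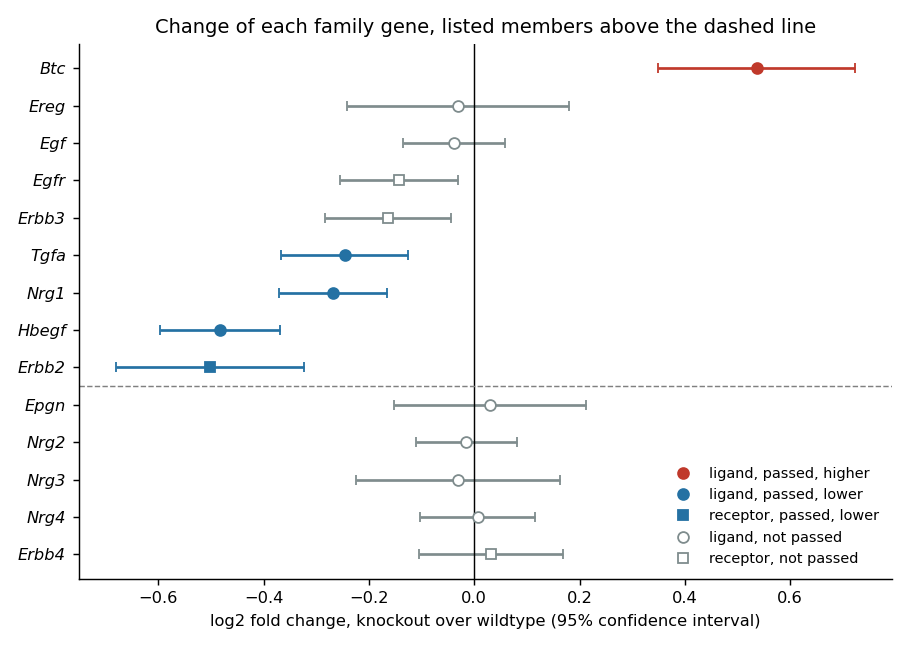
Log2 fold change of each family gene, knockout over wildtype, with its 95% confidence interval from limma; circles are ligands, squares receptors, and filled symbols passed at an adjusted p of 0.05. Btc lies to the right at 0.54, Hbegf and Erbb2 lie farthest to the left at -0.48 and -0.50, and the 5 genes below the dashed line all lie between -0.03 and 0.03.

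Among the 9 members, SDs ran from 0.004 (Egfr) to 0.11 (Ereg) in knockout and from 0.02 (Egf) to 0.13 (Ereg) in wildtype. Wildtype replicate 2 was the highest wildtype array for 6 members and the lowest for 1, Btc. Knockout replicate 3 was the lowest knockout array for 6 members. The array summary can give arrays identical values, and knockout replicates 2 and 3 were identical for Egfr and for Egf, which understates their spread.

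The rest of the ErbB family gave no call. Epgn, which encodes epigen, the neuregulin genes Nrg2, Nrg3 and Nrg4, and the receptor gene Erbb4 differed by log2 values from -0.03 to 0.03, with 0 of 5 passing in limma (0 also at an unadjusted p under 0.05). Nrg2 averaged 7.90 in knockout and 7.91 in wildtype, just above the background range, and the other 4 were within it in both lines. ErbB4 is the second receptor of betacellulin and neuregulin 1, and its transcript averaged 5.83 in knockout and 5.80 in wildtype, a log2 difference of 0.03 (interval -0.11 to 0.17).

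Of the 5 members that changed, the RefSeq promoter table of build GRCm38.p6 held Btc, Erbb2 and Tgfa. Whether their sequences bear on the direction of change was not tested, and all 3 are shown. Each runs from 250 bases before to 50 bases after the gene's start, on the gene's strand, and capitals mark matches on either strand to 7 motifs, which are spelled out after them.
Btc, chr5:91402945-91403244, minus strand: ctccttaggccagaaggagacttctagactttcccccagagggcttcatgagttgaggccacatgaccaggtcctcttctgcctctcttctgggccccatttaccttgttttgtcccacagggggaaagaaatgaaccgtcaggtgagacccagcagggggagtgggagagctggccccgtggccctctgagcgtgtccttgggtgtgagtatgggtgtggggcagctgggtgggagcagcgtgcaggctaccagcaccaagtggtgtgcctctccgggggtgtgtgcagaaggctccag
Erbb2, chr11:98412234-98412533, plus strand: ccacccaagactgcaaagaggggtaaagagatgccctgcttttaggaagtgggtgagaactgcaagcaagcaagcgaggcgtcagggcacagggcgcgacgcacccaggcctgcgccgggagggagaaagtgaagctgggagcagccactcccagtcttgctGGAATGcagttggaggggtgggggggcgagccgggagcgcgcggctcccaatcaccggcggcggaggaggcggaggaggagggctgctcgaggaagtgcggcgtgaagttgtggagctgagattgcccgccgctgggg
Tgfa, chr6:86194972-86195271, plus strand: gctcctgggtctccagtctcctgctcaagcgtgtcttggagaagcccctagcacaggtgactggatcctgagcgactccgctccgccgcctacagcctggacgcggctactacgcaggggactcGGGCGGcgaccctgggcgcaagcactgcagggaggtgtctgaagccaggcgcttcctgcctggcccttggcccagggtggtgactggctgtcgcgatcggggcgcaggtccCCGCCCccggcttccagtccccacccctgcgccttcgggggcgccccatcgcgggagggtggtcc

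The Tgfa window held 2 Sp1 boxes (letters GGGCGG), one starting at -126 on the gene's strand and one at -15 on the opposite strand, counted from the gene's start. The Sp1 box occurs in 35.7% of the 32851 promoter windows of this length. The Erbb2 window held 1 TEAD motif (letters GGAATG), starting at -88, which occurs in 14.7% of the windows. The Btc window held none of the 7. The other motifs were in none of these windows. They were AP-1 (letters TGANTCA), found in 7.8% of all windows, the cAMP response element (letters TGACGTCA), found in 1.8%, and the TATA box (letters TATAAA), found in 13.6%. The E-box (letters CACGTG) is in 7.2% of all windows and the ETS motif (letters CCGGAAGT) in 3.9%. No motif overlapped another in these windows. The Erbb2 and Tgfa windows were rich in CG dinucleotides, with 21 and 24, while the Btc window had 5, the median over all windows being 7.

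Btc, Ereg, Areg and Epgn lie in one stretch of chromosome 5, and their measured neighbours were set beside them. Of the 5 protein-coding genes on either side, 10 in all, 1 rose and 2 fell, beside 12.0% of all genes called, and the median log2 fold change was -0.07. The neutrophil chemokine gene Cxcl1 fell by 0.83 on the log2 scale (limma adjusted p = 0.000587), averaging 8.04 ± 0.07 in knockout and 8.88 ± 0.09 in wildtype, and the kinase gene Cdkl2 passed lower (limma adjusted p = 0.00383) with both means in background range, so no size is given. Parm1, the measured gene next to Btc, rose by 0.20 (limma adjusted p = 0.0477), a call lost without any 1 of the 6 arrays (adjusted p from 0.063 to 0.18). Beside these, Btc differed by 0.54 and Ereg, its measured neighbour on the other side, by -0.03, and the difference between neighbouring genes was not tested.

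**Figure D3:**
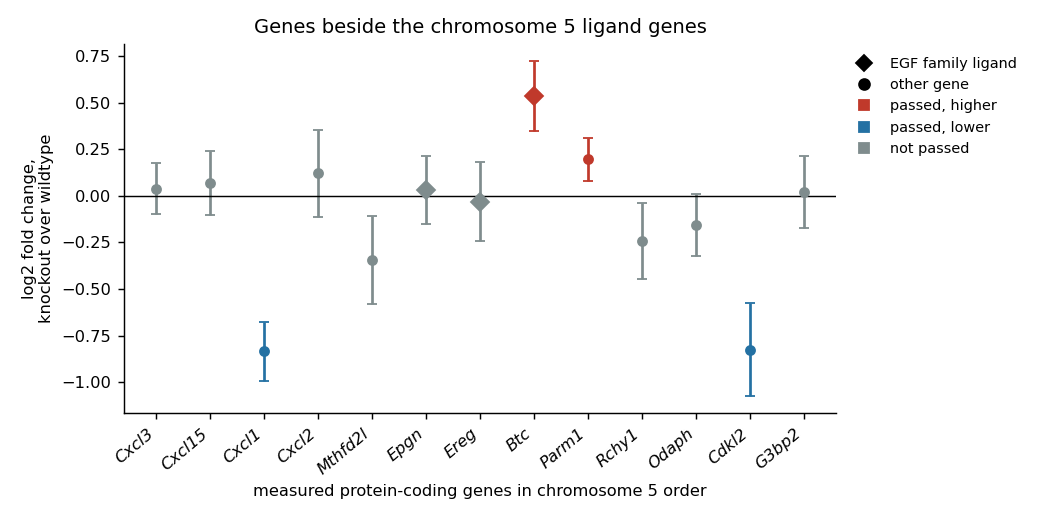
Log2 fold change, knockout over wildtype, of measured protein-coding genes around the chromosome 5 ligand genes, in chromosome order, with 95% confidence intervals from limma. Diamonds are EGF family ligands; Btc at 0.54 stands above Ereg and Parm1 beside it, at -0.03 and 0.20, and Cxcl1 lies at -0.83; both means of Cdkl2 were in background range.

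By likeness over the 6 arrays, the genes closest to Btc among 10883 named protein-coding genes no dimmer than the median gene were Etv5, Nr4a1 and Dlg3, with Pearson r of 0.998, 0.995 and 0.993. Both means of Etv5 (7.48 in knockout, 7.23 in wildtype) and of Dlg3 (7.70 and 7.18) were in background range, as was the median gene, at 7.16. Those closest to Erbb2 were Cacna1g, Naa40 and Rnf167, each with r of 0.997. The points share 2 lines, so any gene that separates them scores high: 233 genes had r above 0.95 with Btc and 970 with Erbb2.

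Ligand precursors are cut free by sheddases, and genes of this step moved in both directions. Among 9 measured genes 3 rose, 1 fell and 5 missed the threshold, beside 12.0% of all genes called, with a median of -0.01. Timp3, which encodes an inhibitor of these metalloproteases, had 11.84, 11.81 and 11.92 on the knockout arrays, against 11.47, 11.47 and 11.39 on the wildtype arrays, a log2 change of 0.41 (SE 0.05; limma adjusted p = 0.00381). Frmd8, whose product stabilises the sheddase complex, rose by 0.28, the metalloprotease gene Adam9 rose by 0.23, and Rhbdf2, which encodes the iRhom2 chaperone of ADAM17, fell by 0.28. Adam17 and Adam10, the main sheddases of these ligands, were chosen for that role and differed by -0.19 and -0.13 without passing (limma adjusted p = 0.131 and 0.27). The count was 1 without knockout replicate 1 or wildtype replicate 3 and 2 without knockout replicate 2 or 3 or wildtype replicate 2, and Timp3 alone of these genes kept its call in each of the 6 fits that leave out an array.

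Of 17 genes for ErbB inhibitors and receptor turnover, 1 rose, 2 fell and 14 did not pass, with a median of 0.00. The 3 called are near the background share, 12.0% of all genes. Errfi1, which encodes MIG6, a feedback inhibitor that binds the ErbB kinase domain, had 9.52, 9.58 and 9.38 on the knockout arrays, against 9.85, 9.96 and 9.95 on the wildtype arrays, a log2 change of -0.43 (SE 0.07; limma adjusted p = 0.0091). The phosphatase gene Ptpn2 fell by 0.45 (adjusted p = 0.0189), and Cbl, which encodes the ubiquitin ligase that sends activated EGF receptor to degradation, rose by 0.41 (adjusted p = 0.02). A slightly dimmer Cbl probe set differed by 0.44 and missed the threshold over all probe sets (limma adjusted p = 0.147), which the brighter one passed (limma adjusted p = 0.042). The Errfi1 call was lost without wildtype replicate 3 (adjusted p = 0.0531), those of Ptpn2 and Cbl without any 1 of 4 arrays each (adjusted p from 0.0559 to 0.0834), and the count was 0 without wildtype replicate 3 and 1 without knockout replicate 1 or 3.

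Among 21 adaptor and kinase genes that carry the signal, 5 rose, 2 fell and 14 did not pass, beside 5.05% of all genes called higher and 6.90% called lower, with a median of 0.03. Eps8, which encodes an EGF receptor substrate that acts on Rac and actin, had 9.64, 9.72 and 9.73 on the knockout arrays, against 7.41, 7.32 and 7.36 on the wildtype arrays, a log2 change of 2.33 (SE 0.05; limma adjusted p = 4.66e-06). The wildtype mean of Eps8 was in background range, and Eps8 was at least 3.78-fold higher in knockout. Gab2, which encodes a docking protein, rose by 0.56, and Pik3r1, which encodes a regulatory subunit of phosphoinositide 3-kinase, rose by 0.37, while the catalytic subunit gene Pik3cb fell by 0.62. The Pik3r1 call was lost in 5 of the 6 fits that leave out an array (adjusted p from 0.0598 to 0.106). The count was 4 without knockout replicate 1 or 2 or wildtype replicate 3.

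Genes known to follow ERK activity, a list chosen with earlier results of these data known, were mostly higher in knockout. Among 16 measured genes 10 rose, 1 fell and 5 missed the threshold, beside 12.0% of all genes called, and the list median was 0.55, against 0.01 over all genes. Phlda1 had 10.62, 10.65 and 10.72 on the knockout arrays, against 8.82, 8.79 and 9.01 on the wildtype arrays, a log2 change of 1.79 (SE 0.07; limma adjusted p = 3.97e-05). Dusp6, which encodes the ERK phosphatase, rose by 1.58, and the feedback inhibitor genes Spry4 and Spred1 also rose, Spred1 by 0.90 and Spry4, with its wildtype mean in background range, by at least 1.46-fold. The gene that fell, Egr1, was named after its value was seen, with 9.18, 9.19 and 9.18 on the knockout arrays and 9.42, 9.44 and 9.52 on the wildtype arrays (log2 fold change -0.27, limma adjusted p = 0.0113), a call lost without knockout replicate 1 or 2 or wildtype replicate 3 (adjusted p from 0.0508 to 0.0575).

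Of 9 genes for receptors and kinases known to trigger ligand release, 2 rose, none fell and 7 did not pass, beside 5.05% of all genes called higher and 6.90% called lower. The prostaglandin receptor gene Ptger4 rose by 0.24 and the kinase gene Prkcd by 0.19 (limma adjusted p = 0.0416 and 0.0479), and the count was 0 without any 1 of 5 arrays, all except wildtype replicate 2.

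**Figure D4:**
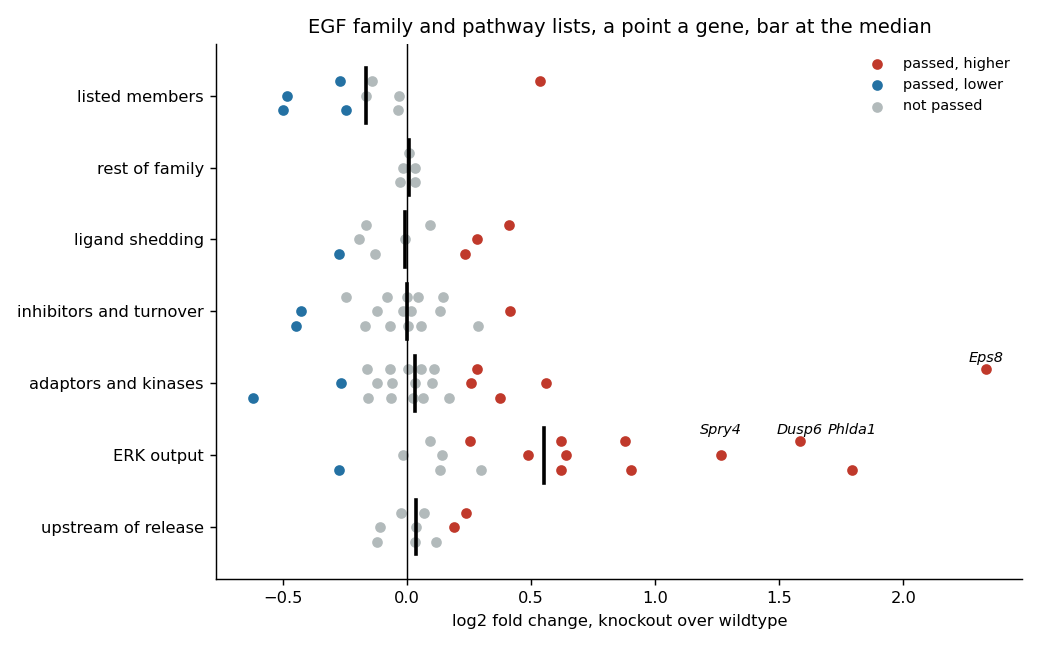
Log2 fold change, knockout over wildtype, of the listed members, the rest of the family and the pathway lists, a point for each gene, coloured by whether it passed at a limma adjusted p of 0.05, with a bar at each list's median. The ERK output median is at 0.55 and that of the listed members at -0.16, while the other medians lie between -0.01 and 0.03.

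Markers of other cell types moved with the genotype as well. Of 7 kidney tubule markers 4 fell, with log2 fold changes of -3.50 for Aqp1, -1.50 for Cdh16, -0.73 for Pax8 and -0.36 for Lrp2, and the mean of the list was 8.88 to 8.95 on the knockout arrays and 9.73 to 9.87 on the wildtype arrays. Of 6 mesangial or smooth muscle markers 3 rose, Acta2 by 2.83 and Cnn1 by 1.20 on the log2 scale and Pdgfrb, with its wildtype mean in background range, at least 4.43-fold. The other 3, Des, Itga8 and Myh11, were in background range in both lines, and the mean of the list was 8.64 to 8.72 on the knockout arrays and 7.50 to 7.63 on the wildtype arrays. Of 5 fibroblast markers 2 rose, Col1a1 by 3.03 on the log2 scale and Dcn, with its wildtype mean in background range, at least 7.91-fold. The other 3, Col1a2, Lum and Thy1, were in background range in both lines, and the mean of the list was 8.44 to 8.52 on the knockout arrays and 6.86 to 6.96 on the wildtype arrays. Of 6 endothelial markers none passed with limma (1, Flt1, at an unadjusted p under 0.05), and all were in background range. The part of these differences in the values of Btc, Hbegf, Nrg1, Tgfa and Erbb2 was not tested, and fewer cells of a type cannot be told apart from less RNA per cell.

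**Figure D5:**
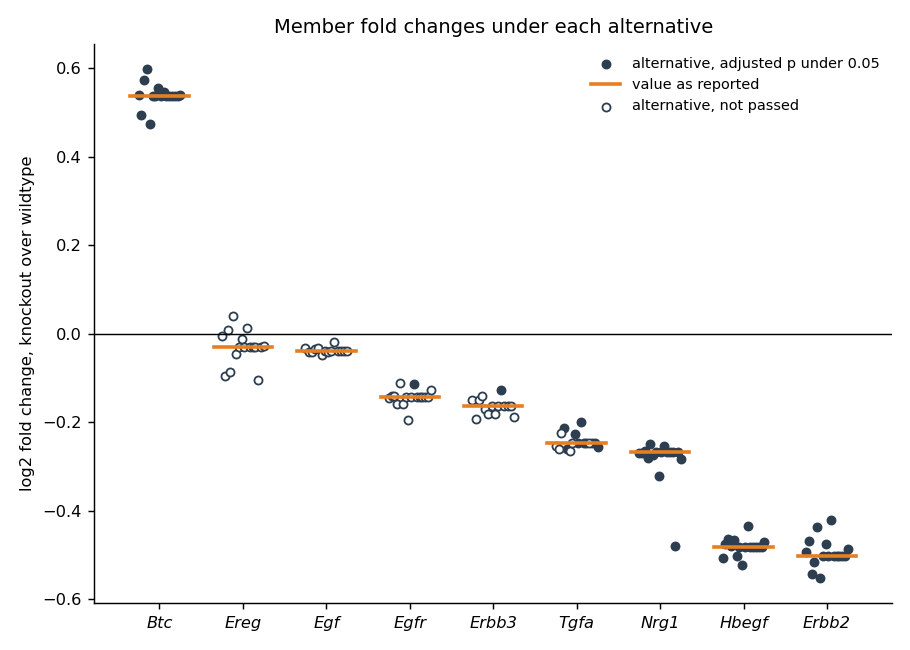
Log2 fold change of each member, knockout over wildtype, under each alternative way of processing (points, filled where the limma adjusted p was under 0.05) beside the value as reported (orange line). The points of Btc stay above 0.47 and those of Hbegf and Erbb2 below -0.42, while Tgfa has both filled and open points and Ereg lies on both sides of 0.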

How the data were processed

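The deposited table holds log2 intensities per probe set on 6 arrays, which the authors made by RMA in affy 1.44.0, going by the submitters' processing notes. RMA corrects background, quantile-normalizes and summarises probes, which can give arrays identical values. Filters and the probe definition file are not given in the sources used. Probe sets were named from the platform annotation, 31258 of 72688 naming 1 gene; symbols were updated through a RefSeq table (GRCm38.p6). The probe set with the highest mean was kept for each of 30702 genes.

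The 2 genotypes were compared by limma 3.58.1 (lmFit, eBayes, no covariate) in R 4.3.3, with Benjamini-Hochberg adjustment at 0.05. On simulated data for this comparison (30702 genes), the share of true changes called was 59.7% at a log2 size of 0.5 (67 genes), 83.6% at a size of 1 (67 genes) and 98.5% at a size of 2 (66 genes), beside 6 false calls. The simulation changed 200 genes, far fewer than the 3669 called in the data. The adjusted cut-off depends on how many genes change, so these shares need not hold for the data. Named genes were all members, the rest of the family, Nck1 and Nck2, and up to 4 passing genes with the largest change of each list, or the leading 2 where fewer than 2 passed, beside the 3 genes most like the members with the largest rise and fall. The members and lists were chosen with earlier results of these data known. P-values measure the spread between arrays of 1 line each. The 17 alternatives tried left out each array, added the replicate number as a block, or changed normalization, variance model, array weights, filter, probe set choice, chromosome offset or threshold.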

Additional observations from a re-analysis of the deposited data

How the results depend on the processing

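Btc, Hbegf, Nrg1 and Erbb2 kept their direction and their call at 0.05 under the alternatives tried, with adjusted p up to 0.0397, 0.0124, 0.0496 and 0.0411 and log2 fold changes from 0.47 to 0.60, from -0.52 to -0.43, from -0.48 to -0.25 and from -0.55 to -0.42. At a threshold of 0.01, tried only on the fit as reported, these 4 also passed. The count of changed members ran from 4 to 7. Tgfa kept its direction (-0.26 to -0.21 when an array was left out) and missed the threshold with the replicate block (-0.25, adjusted p = 0.052), over all probe sets (-0.25, adjusted p = 0.0616, where 72688 features are tested) and at 0.01 (-0.25). With array weights, Egfr (-0.11, adjusted p = 0.00771) and Erbb3 (-0.13, adjusted p = 0.0134) passed; that fit gave wildtype array 3 a weight of 54.8 and called 10170 genes. The count of all changed genes was 1948 at 0.01 and ran from 2079 to 3388 when an array was left out, lowest without wildtype replicate 3. Shedding genes numbered 1 to 3 when an array was left out, 2 with the replicate block, 2 over all probe sets, 7 with array weights and 1 at 0.01. Inhibitor and turnover genes numbered 0 to 3 when an array was left out, 5 after quantile normalization again, 9 with array weights and 1 at 0.01. Adaptor and kinase genes numbered 4 to 6 when an array was left out, 13 with array weights and 3 at 0.01. Genes upstream of ligand release numbered 0 to 2 when an array was left out, 0 with the replicate block, over all probe sets, with chromosome medians taken off and at 0.01, and 1 without genes of identical values in a group. Neighbours of the chromosome 5 ligands numbered 7 with array weights. ERK output genes ran from 8 to 14, and the rest of the family stayed at 0. The cause of these shifts was not tested. Arrays with the same replicate number deviated together with r of 0.35, 0.28 and 0.04, and 5 of the 6 arrays correlated best with their own number, a hint of pairing in the data. Of the 3 pairs, 2 had r over 0.1. The fit as reported used no block, a choice on which the Tgfa call depends. The replicate block gave 3765 changed genes, against 3669 without it.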
